A study of Mus musculus with 7 samples.

Results

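The transcripts described here are those of 9 genes of the Lin28 pathway and its fetal growth program, Lin28a, Lin28b, Igf2bp1, Igf2bp2, Igf2bp3, Hmga1, Hmga2, Arid3a and Mycn, followed in the mouse adrenal gland from late gestation to adulthood. They were chosen by symbol, and all 9 were found among the 35976 gene rows of the table. RNA was sequenced from pooled whole adrenal glands of C57BL/6J mice, a common inbred laboratory strain, with no treatment or engineered allele given in the labels. There were 7 libraries, each from 1 pool. The E18.5 library, of late gestation, came from 40 glands of embryos whose sex was not determined. The P1 libraries (postnatal day 1) came from 16 male and 22 female glands. The 2-week libraries came from 6 male and 6 female glands, and the 12-week libraries from 4 male and 4 female glands.

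LIN28A and LIN28B are RNA-binding proteins that bind the precursors of the let-7 microRNAs and block their maturation. Mature let-7 represses messenger RNAs that carry a complement of its seed in the 3′ untranslated region (UTR), and the IGF2BP, HMGA2, ARID3A and LIN28 messages are textbook targets, so that LIN28 and let-7 hold each other in check. The pathway is known for its activity in embryonic and fetal cells and its decline as tissues mature. In the adrenal gland it has been studied mostly through neuroblastoma, a tumour of the sympathetic lineage in which LIN28B and MYCN are known drivers.

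Each library held 15184210 to 23551289 reads in genes. Values are normalized counts, that is reads in a gene divided by a factor for the depth of its library. All 8 cortex markers (among them Star and Cyp11a1) and all 8 chromaffin markers (among them Th and Pnmt) had reads in every library, and the cortex sum ranged from 256744 normalized counts in the library labelled P1 female to 1133649 in the 12-week female one. The library labelled P1 female also held transcripts of 4 Y-linked genes (1153 reads), which stood at 15.6 to 28.1% of their value in the male library of that age (median 21.0%). The same median was 0.0609% in the 2-week and 0.0132% in the 12-week female library, so that counts of calls in the age comparisons are also given without it. A test needs replicates, and each age and sex had 1 library. The ages were therefore compared with limma on log2(normalized count + 1) over the 6 postnatal libraries, with sex as a block, which leaves 2 residual degrees of freedom. A gene was tested if its mean reached 10 normalized counts, and called if its Benjamini-Hochberg adjusted p was below 0.05. This left 16720 genes and 8 of the 9 members, Lin28a being too low.

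The let-7 sequences are shown first because a shared stretch of bases links them to the members. RefSeq (GRCm38.p6) lists 11 let-7 and miR-98 5p arms in the mouse, and they hold 1 seed among them (bases 2 to 8, in capitals). The following 3 come from precursors whose rows passed the filter.
mmu-let-7a-5p (chr13:48538239-48538260, minus strand): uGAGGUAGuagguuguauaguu
mmu-let-7f-5p (chr13:48537889-48537910, minus strand): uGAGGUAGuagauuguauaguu
mmu-let-7c-5p (chr16:77599672-77599693, plus strand): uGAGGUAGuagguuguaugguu

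The complement of that seed, CTACCTC, was searched on the transcript strand of the 3′ UTR of 1 transcript per gene (GENCODE vM21, GRCm38). It occurred in 8 of the 9 members (88.9%), against 1880 of 20996 protein-coding genes with a 3′ UTR (8.95%). The members were chosen as genes of this pathway, textbook targets among them, so a high share was built into the choice. Igf2bp1, Lin28b and Hmga2 each held 4 matches, Lin28a and Arid3a 2 each, and Igf2bp2, Igf2bp3 and Hmga1 1 each. The 913-base 3′ UTR of Mycn held none. Long UTRs hold more matches by length alone, and the comparison with genes whose UTR was within 20% of the member's length takes this into account. The member itself is counted among those genes. Of 2227 genes with a UTR as long as that of Hmga2, 0.135% held 4 or more matches, and for Lin28b the share was 0.238% of 1259 genes. For Igf2bp2, Igf2bp3 and Hmga1, by contrast, between 7.95% and 13.3% of genes with UTRs of like length held at least 1 match. A match describes the letters only. The match nearest the stop codon is shown for each member that has one, as 30 bases of the transcript with the match in capitals.
Lin28a (chr4:134005189-134005218, minus strand): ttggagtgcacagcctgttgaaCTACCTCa
Lin28b (chr10:45381022-45381051, minus strand): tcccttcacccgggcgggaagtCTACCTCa
Igf2bp1 (chr11:95961778-95961807, minus strand): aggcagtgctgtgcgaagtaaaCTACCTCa
Igf2bp2 (chr16:22059473-22059502, minus strand): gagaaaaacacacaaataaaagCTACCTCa
Igf2bp3 (chr6:49086787-49086816, minus strand): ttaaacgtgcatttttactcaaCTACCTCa
Hmga1 (chr17:27563270-27563299, plus strand): catcttctcctctgttcacaaaCTACCTCt
Hmga2 (chr10:120364224-120364253, minus strand): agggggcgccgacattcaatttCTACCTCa
Arid3a (chr10:79953888-79953917, plus strand): cacatgcaaggcaagtttctttCTACCTCa
In 7 of these 8 the match is followed by an A, and in Hmga1 by a T.

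All 8 tested members fell between P1 and 12 weeks, from 1.91-fold for Mycn to between 44.6-fold and 492-fold for Igf2bp1 and Igf2bp3 in the single sexes, the last on 2 reads. Over the same span 23.5% of all tested genes were called lower and 17.6% higher. The median log2 difference of the 8 was -2.67, against -0.03 over all tested genes. For all 9 members, Lin28a included, both P1 libraries lay above both 2-week libraries, and these above both 12-week libraries, an order that 15.1% of all tested genes followed. In whole-gland RNA, fewer cells of a type and less RNA per cell cannot be told apart.

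**Figure D1:**
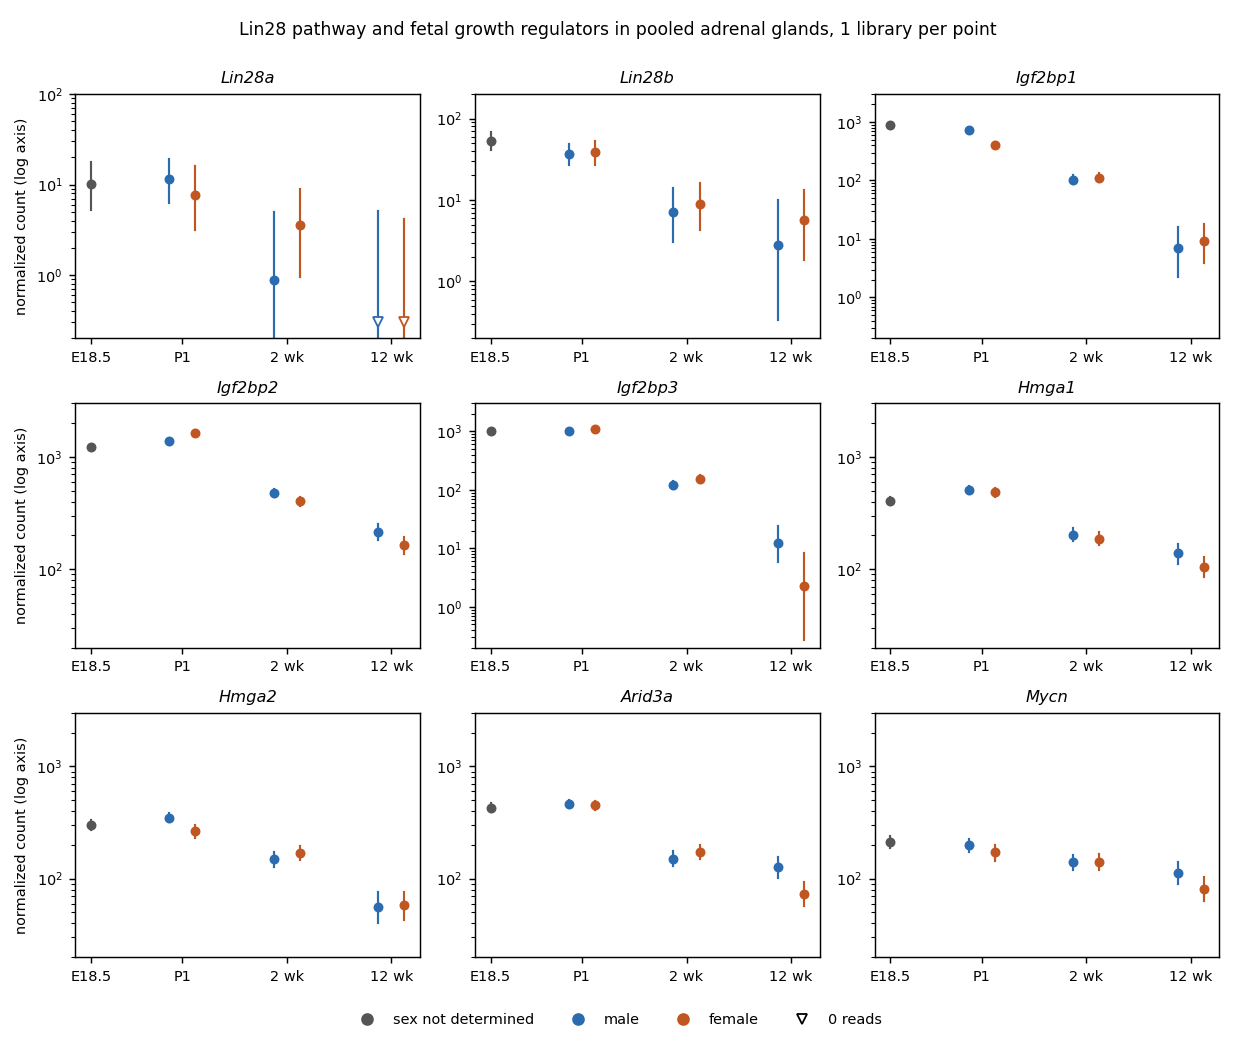
Normalized count (log axis) of each of the 9 members in the 7 libraries, by age; each point is 1 library and each bar its 95% Poisson interval, which covers counting error only. Open triangles for Lin28a at 12 weeks mark 0 reads and stand at no value; for every member the 2-week points lie between the P1 and the 12-week points.

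The LIN28 proteins, at the head of the pathway, had the lowest transcript levels of the set per kilobase of exon at E18.5 and P1. Lin28b stood at 52.93 normalized counts at E18.5, 36.82 and 38.63 in the P1 male and female libraries, 7.12 and 8.82 at 2 weeks and 2.80 and 5.66 at 12 weeks. These rest on 63 reads at E18.5 and on 2 and 5 reads at 12 weeks. The P1 libraries lay apart from the 2-week ones, while the 2-week and 12-week values were close enough to overlap in their counting error. Lin28b fell from P1 to 2 weeks by 2.12 on the log2 scale (SE 0.507, adjusted p = 0.0365), and its further difference of -0.83 to 12 weeks did not pass (SE 0.507, adjusted p = 0.308). From P1 to 12 weeks it fell 13.2-fold in males (95% interval 3.44 to 112) and 6.83-fold in females (2.66 to 22.3), by exact counting intervals of the ratio.

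Lin28a was near the limit of detection throughout. It had 12 reads at E18.5, 14 and 7 at P1, 1 and 4 at 2 weeks, and 0 in both 12-week libraries. Taking 3 reads as the limit that a count of 0 allows, its level at 12 weeks was at least 2.73-fold lower than at P1 in males and at least 2.28-fold lower in females. With no filter on low genes, limma gave Lin28a a difference of -3.38 from P1 to 12 weeks (SE 0.563, adjusted p = 0.0443). Lin28b supplied 84.0% of the Lin28 reads at E18.5 (exact 95% interval 73.7 to 91.4) and 76.3% and 83.3% in the P1 male and female libraries. Per kilobase of exon Lin28b also stood above Lin28a, at 6.82 against 3.27 normalized counts per kilobase in the P1 male library. An annotated transcript on the other strand, Gm13061, overlaps exons of Lin28a, and since the use of strand in counting is not given in the sources used here, the reads of the pair cannot be told apart.

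The IGF2BP proteins bind messenger RNAs, Igf2 among them, and are known to stabilize them or steer their translation. Igf2bp3 stood at 1015.0 normalized counts at E18.5, 1024.5 and 1113.7 at P1, 121.0 and 151.7 at 2 weeks, and 12.58 and 2.26 at 12 weeks. No 2 ages overlapped except E18.5 and P1, which lay close together. It fell 8.47-fold in males and 7.34-fold in females from P1 to 2 weeks (limma log2 -2.97, SE 0.572, adjusted p = 0.0186). From 2 to 12 weeks it fell further (log2 -4.36, SE 0.572, adjusted p = 0.00577). By 12 weeks 9 reads were left in the male library and 2 in the female one, which put the fold from P1 at 81.4 (42.8 to 178) and 492 (136 to 4070).

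Igf2bp1 was the other member that all but disappeared. Its normalized counts were 899.9 at E18.5, 731.5 and 404.0 at P1, 103.2 and 112.0 at 2 weeks, and 6.99 and 9.05 at 12 weeks. The fall passed the test from P1 to 2 weeks (log2 -2.33, SE 0.360, adjusted p = 0.00986) and from 2 to 12 weeks (log2 -3.60, SE 0.360, adjusted p = 0.00246). From P1 to 12 weeks the fall was 105-fold in males (44.7 to 323) and 44.6-fold in females (22.4 to 104). The transcripts Mir3063 and Gm29202 share exonic bases with Igf2bp1, and Malsu1 with Igf2bp3, so that reads there may be shared.

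Igf2bp2, the family member known to persist in adult tissues, fell the least of the 3. It stood at 1227.5 normalized counts at E18.5, 1386.1 and 1643.6 at P1, 475.9 and 403.2 at 2 weeks, and 213.9 and 164.0 at 12 weeks. It too fell in both steps (log2 -1.78, SE 0.204, adjusted p = 0.00443, and log2 -1.22, SE 0.204, adjusted p = 0.0124) on the log2 scale. The family's make-up moved with age as a result of these unequal falls. Igf2bp2 held 39.1% of the reads in the 3 genes at E18.5, 44.1% (42.5 to 45.7) in the P1 male library and 52.0% (50.1 to 53.8) in the one labelled P1 female. The share was 68.0% and 60.4% at 2 weeks, and 91.6% (86.3 to 95.3) and 93.5% (88.5 to 96.9) at 12 weeks. Igf2bp1 and Igf2bp3 together thus went from the larger part of the family's reads at E18.5 to 14 of 167 and 10 of 155 reads at 12 weeks. Per kilobase of exon, Igf2bp2 led the 9 members in both P1 libraries (343 and 407), followed by Hmga1 (241 and 228) and Igf2bp3 (236 and 256), whose ranges overlapped. In the 12-week male library Hmga1 (65.1 per kilobase) stood above Igf2bp2 (52.9).

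**Figure D2:**
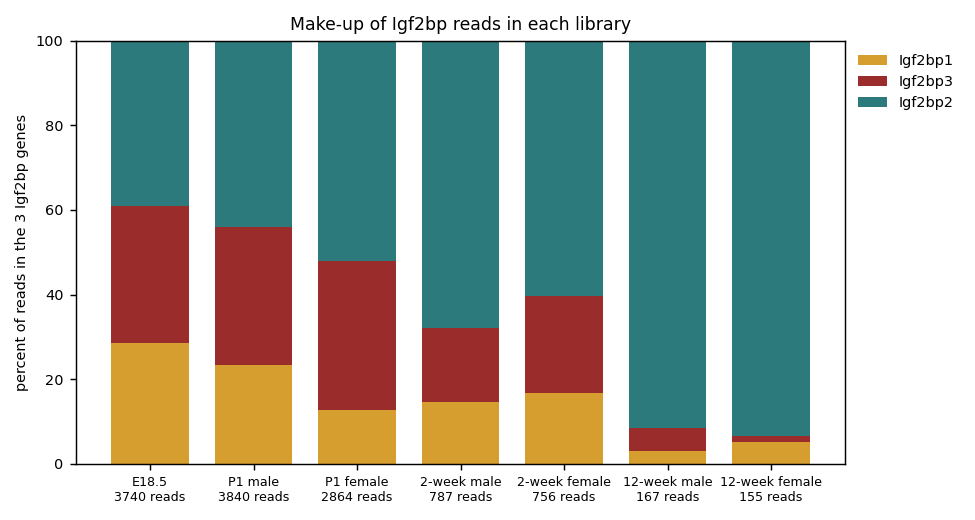
Percent of the reads in Igf2bp1, Igf2bp2 and Igf2bp3 that each gene held, by library, with the number of reads in the 3 genes under each bar. The Igf2bp2 part goes from 39.1% at E18.5 to 91.6% and 93.5% at 12 weeks.

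HMGA1 and HMGA2 are small chromatin proteins that bind AT-rich DNA and are abundant in embryonic tissue. Hmga2 stood at 300.8 normalized counts at E18.5, 350.2 and 264.9 at P1, 148.6 and 170.3 at 2 weeks, and 55.93 and 57.70 at 12 weeks. The ages from P1 on did not overlap, yet the first step of -0.93 narrowly missed the threshold (SE 0.252, adjusted p = 0.0514). The second passed it (log2 -1.47, SE 0.252, adjusted p = 0.0134). The first step was 2.36-fold in males (1.97 to 2.84) and 1.56-fold in females (1.28 to 1.89), and it passed with edgeR and with DESeq2 on the recovered reads.

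Hmga1 followed another course. Its normalized counts were 405.8 at E18.5, 512.2 and 483.5 at P1, 203.7 and 187.0 at 2 weeks, and 138.4 and 105.2 at 12 weeks. The larger step was the first, log2 -1.35 (SE 0.203, adjusted p = 0.00911), and the second, -0.69, did not pass (SE 0.203, adjusted p = 0.0674). The second step passed with libraries scaled to equal totals (adjusted p = 0.0314). The genes AI413582 and Gm49774 overlap exons of Hmga1 on the other strand, and 1700006J14Rik those of Hmga2.

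Arid3a and Mycn encode transcription factors. ARID3A is a DNA-binding protein of the ARID family with known roles in B cells and early development, and MYCN is the MYC family member of embryonic and neural tissue. Arid3a stood at 429.3 normalized counts at E18.5, 461.5 and 449.3 at P1, 151.2 and 173.8 at 2 weeks, and 127.2 and 73.54 at 12 weeks. It fell from P1 to 2 weeks (log2 -1.48, SE 0.284, adjusted p = 0.0182), and the step after it did not pass (log2 -0.74, SE 0.284, adjusted p = 0.128), except without the 12-week male library (adjusted p = 0.0131). In the male libraries that later step was 1.19-fold, with an interval that held no change (0.916 to 1.55), and in the female ones it was 2.36-fold (1.78 to 3.18).

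Mycn had the shallowest course. It stood at 211.7 normalized counts at E18.5, 198.0 and 171.1 at P1, 139.7 and 141.2 at 2 weeks, and 113.2 and 81.46 at 12 weeks. The single steps of -0.39 (SE 0.242, adjusted p = 0.318) and -0.54 (SE 0.242, adjusted p = 0.177) did not pass, while the fall from P1 to 12 weeks did (log2 -0.93, SE 0.242, adjusted p = 0.0230). That call was lost in 6 of 15 alternatives, with adjusted p from 0.0146 to 0.137 over all of them. It was 0.137 without the library labelled P1 female, 0.133 without the P1 male one, 0.0544 and 0.0531 without the 2-week male and female ones, 0.0947 without the 12-week female one, and 0.0564 with no filter on low genes. The other 7 tested members kept their call from P1 to 12 weeks in each alternative in which they were tested, also without the library labelled P1 female. Mycn was also the member with no match to CTACCTC in the 1 transcript searched. Shorter or other forms of let-7 site were not searched, so the lack of a match does not show that Mycn has no let-7 site. A link between the number of matches and the size of the fall was not tested.

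From P1 to 2 weeks 6 of the 8 tested members fell (Lin28b, the 3 Igf2bp genes, Hmga1 and Arid3a), where 10.5% of all tested genes did and 5.89% rose. None rose, and the median log2 difference of the 8 was -1.63 against 0.00 over all genes. With edgeR 7 were called lower and with DESeq2 6, in both cases with Hmga2 among them, and Lin28b did not pass with DESeq2. The fits without a P1 or a 2-week library have 1 residual degree of freedom. Without the library labelled P1 female 0 members were called, without the P1 male or the 2-week male library also 0, and without the 2-week female library Igf2bp2 alone. Those fits called 28, 2, 201 and 750 of all genes, and all 8 members kept a negative difference in each.

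From 2 to 12 weeks 4 of the 8 fell (the 3 Igf2bp genes and Hmga2), where 9.89% of all tested genes did and 5.40% rose. The median was -1.02 against -0.03 over all genes. With edgeR and with DESeq2 the same 4 were called. Igf2bp1 kept its call in 14 of 15 alternatives. Without the P1 male library, or without the one labelled P1 female, Igf2bp1 and Igf2bp2 remained called. Without the 2-week male library these were Igf2bp1 and Igf2bp3, and without the 2-week female library Igf2bp1.

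**Figure D3:**
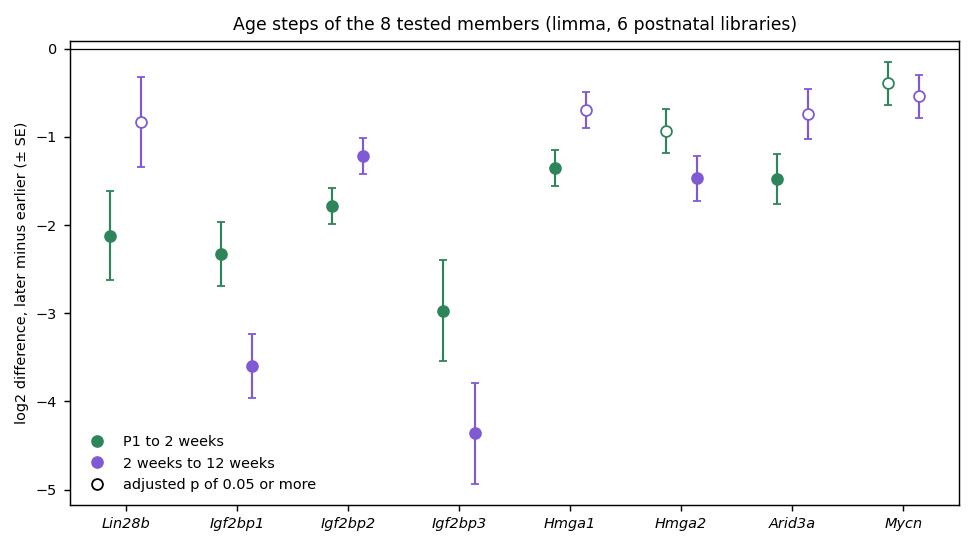
Log2 difference (later minus earlier, limma over 6 postnatal libraries, bars ± SE) of the 8 tested members for P1 to 2 weeks and for 2 to 12 weeks; filled points had an adjusted p under 0.05. Igf2bp1, Igf2bp3, Hmga2 and Mycn have the larger second step, and Lin28b, Igf2bp2, Hmga1 and Arid3a the larger first step. The difference between the steps was not tested.

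Around birth, between E18.5 and P1, the member furthest from its E18.5 value after Igf2bp1 was Lin28b. It was 1.44-fold lower in the P1 male library (0.965 to 2.16). There is 1 library of E18.5, so ratios are given with counting intervals and a fold of 2 was taken as the limit. No member reached it in the P1 male library, where 8.40% of tested genes did in either direction. In the library labelled P1 female 1 of the 8 did, where 13.2% of tested genes did. That was Igf2bp1, 2.23-fold lower than at E18.5 (1.98 to 2.51), whereas it was 1.23-fold lower in the P1 male library (1.12 to 1.35). Hmga1 was 1.26-fold (1.12 to 1.42) and 1.19-fold (1.04 to 1.36) higher than at E18.5, and Igf2bp2 1.13-fold (1.05 to 1.21) and 1.34-fold (1.24 to 1.44) higher. For Lin28a, Lin28b and Arid3a the intervals held no change in both libraries. The E18.5 pool mixes embryos of undetermined sex, which cannot be told apart from the age.

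Between the sexes 0 of the 8 tested members were called over the postnatal ages, with limma, edgeR and DESeq2 alike, and none had an unadjusted p below 0.05 in limma. Of all genes 0.00598% were called. The log2 differences, male minus female, ran from -0.38 for Lin28b (SE 0.414) to 0.54 for Igf2bp3 (SE 0.467), each with an adjusted p of 0.999. Within single ages some ratios exceeded counting error. At P1 Igf2bp1 was 1.81 times as high in the male library (1.60 to 2.05) and Hmga2 1.32 times (1.13 to 1.55), while Igf2bp2 was 0.843 times as high (0.786 to 0.905), in a comparison that rests on the library with Y-linked transcripts. At 12 weeks the male library held 1.73 times as much Arid3a (1.24 to 2.42) and 1.30 times as much Igf2bp2 (1.03 to 1.65). The 9 male against 2 female reads of Igf2bp3 gave a ratio of 5.56 (1.15 to 52.9). On log2(normalized count + 1), the scale of the 2-fold limit, it was the 1 of the 8 past 2-fold at that age, where 8.83% of tested genes were. The ratio of Lin28b without the added 1, 2.02-fold lower in the male library on 2 against 5 reads, had an interval that held no change (0.331 to 21.2). At P1 and at 2 weeks 0 of the 8 differed 2-fold, where 6.78% and 4.24% of tested genes did. With 1 library a side, none of these ratios has a replicate check.

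The let-7 genes themselves were read through their precursor and host rows, since a gene count table of long RNA does not report mature microRNAs. Of 17 such genes 15 were in the table and 7 were tested. Between P1 and 12 weeks 4 rose and none fell. Mir99ahg, the host of let-7c-1, stood at 197.2 and 176.6 normalized counts at P1, 222.4 and 197.6 at 2 weeks, and 479.6 and 398.2 at 12 weeks (log2 1.22, SE 0.187, adjusted p = 0.00326). It rose from 2 to 12 weeks (log2 1.06, adjusted p = 0.0149), a call lost without the library labelled P1 female, and its difference from P1 to 2 weeks was 0.17 (adjusted p = 0.581). The row of Mirlet7f-1 went from 13.09 and 19.87 at P1 to 43.59 and 26.47 at 2 weeks and 60.12 and 54.31 at 12 weeks (P1 to 12 weeks log2 1.76, SE 0.428, adjusted p = 0.0180). Mirlet7a-1 rose by 2.07 (SE 0.642, adjusted p = 0.0412) and Mirlet7c-1 by 1.56 (SE 0.430, adjusted p = 0.0277) over the same span. Mirlet7a-1 had 66 reads in all 7 libraries, with 7.36 and 2.21 normalized counts at P1 and 22.37 and 19.23 at 12 weeks. Mirlet7a-1 and Mirlet7f-1 lie close together on chromosome 13, and Mir99ahg hosts Mirlet7c-1, so the 4 rows are not independent. None of the 7 was called from P1 to 2 weeks with limma, edgeR or DESeq2, and 1 had an unadjusted p below 0.05. Huwe1 and Wdr82, protein-coding hosts of other let-7 genes, differed by 0.09 (adjusted p = 0.717) and -0.03 (adjusted p = 0.861) from P1 to 12 weeks. DESeq2 called 2 of the 7 from P1 to 12 weeks, and limma called 2 without the library labelled P1 female.

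Most of the enzymes and cofactors of let-7 maturation and decay were not called. Of 15 tested, 2 rose and 3 fell between P1 and 12 weeks, where 17.6% of all tested genes rose and 23.5% fell. The median was -0.19, against -0.03 over all tested genes. Khsrp, a precursor-binding protein that promotes let-7 processing, fell by 1.08 (SE 0.144, adjusted p = 0.00202). Ago2, the slicing Argonaute, fell by 0.89 (SE 0.161, adjusted p = 0.00608), whereas Ago3 rose by 1.24 (SE 0.161, adjusted p = 0.00184) and Ago4 by 0.69 (SE 0.193, adjusted p = 0.0288). Zcchc11 (TUT4), the uridylyltransferase that LIN28A recruits to let-7 precursors, fell by 0.65 (SE 0.182, adjusted p = 0.0298). Zcchc6 (TUT7) differed by -0.19 and was not called (SE 0.141, adjusted p = 0.308). Dis3l2, the exonuclease that degrades the uridylated precursors, differed by 0.22 (adjusted p = 0.342). Trim71, itself a well-known let-7 target, was too low to be tested. It held 10.08 normalized counts at E18.5, 12.27 and 8.83 at P1, 2.67 and 0.88 at 2 weeks, and 0 reads in both 12-week libraries. Without the library labelled P1 female 2 of the 15 were called.

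Other reported let-7 targets went both ways. Of 21 tested, 7 fell and 4 rose between P1 and 12 weeks, with a median of -0.10, and 15 of the list's 22 genes (68.2%) held a seed match. Rrm2, a ribonucleotide reductase subunit needed for DNA synthesis, fell by 3.80 (SE 0.204, adjusted p = 0.000126), with -0.06 of it before 2 weeks (adjusted p = 0.880). Acvr1c, an activin-type receptor, rose by 1.64 (SE 0.297, adjusted p = 0.00616) and Nr6a1, an orphan nuclear receptor, by 1.49 (SE 0.219, adjusted p = 0.00288). For Acvr1c the P1 values were the lowest, at 455.8 and 341.1 normalized counts against 1605.6 at E18.5. It held 1537.2 and 1535.1 at 2 weeks and 1933.6 and 781.8 in the 12-week male and female libraries. Without the library labelled P1 female 4 of the 21 were called. From P1 to 2 weeks, when 6 members fell, 1 gene of this list fell (Plagl2, log2 -0.90, SE 0.178, adjusted p = 0.0204) and 1 rose (Acvr1c), and neither was called without the library labelled P1 female.

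Genes were also sorted by how many seed matches their 3′ UTR held. The median difference from P1 to 12 weeks was -0.08 for the 12991 tested genes with no match (25.4% called lower), -0.19 for the 1316 with 1 match and -0.22 for the 157 with 2. It was -0.84 for the 27 genes with 3 or more, of which 15 were called lower and 3 higher. Igf2bp1, Lin28b and Hmga2 are 3 of those 27, with -5.93, -2.95 and -2.40, and among the other 24 the most negative value was that of Trim67 (-2.97). Nr6a1 held 8 matches, the largest number, and rose. These counts are a description, and long UTRs, which hold more matches, may differ in other ways.

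Fetal growth genes outside the set took a course like that of the members. Of 11 tested, 9 fell from P1 to 2 weeks (median -1.61), 5 fell from 2 to 12 weeks and 10 fell over the whole span, and none rose. Igf2, the fetal growth factor whose message the IGF2BP proteins bind, stood at 22913.1 normalized counts at E18.5, 35814.8 and 40516.4 at P1, 998.1 and 1726.5 at 2 weeks, and 321.6 and 264.7 at 12 weeks. It fell by 4.86 (SE 0.249, adjusted p = 0.000774) and then further (log2 -2.17, SE 0.249, adjusted p = 0.00390). H19, the noncoding RNA of the same imprinted locus, fell by 4.86 (SE 0.204, adjusted p = 0.000562) and then further (log2 -5.58, SE 0.204, adjusted p = 0.000393). The zinc finger gene Plag1, a known activator of Igf2, fell by 1.35 over the whole span (SE 0.207, adjusted p = 0.00330). Dlk1 fell by 1.83 over the same span (SE 0.160, adjusted p = 0.000448). Ptn, a secreted growth factor, was the 1 gene of the 11 that was not called (log2 -0.45, SE 0.161, adjusted p = 0.0627). Without the library labelled P1 female 1 of the 11 was called from P1 to 2 weeks and 9 over the whole span.

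The cell cycle genes were lower at 12 weeks than at 2 weeks and close together before. Of 12 tested, none fell and 1 rose from P1 to 2 weeks (median -0.04), and all 12 fell from 2 to 12 weeks (median -3.50). Mki67, a marker of cycling cells, differed by -0.48 in the first step (adjusted p = 0.0632) and fell by 3.85 in the second (SE 0.138, adjusted p = 0.000393). Pcna, the replication clamp, rose by 0.57 in the first step (SE 0.143, adjusted p = 0.0420) and fell by 1.22 in the second (SE 0.143, adjusted p = 0.00409). Over the whole span the fall was steepest for the mitotic kinase Plk1 (log2 -5.20, SE 0.479, adjusted p = 0.000537) and, beside Pcna, shallowest for the replicative helicase subunit Mcm2 (log2 -1.06, SE 0.177, adjusted p = 0.00443). The 12 genes summed to 29491 and 31265 normalized counts at P1, 26581 and 27307 at 2 weeks, and 3948 and 4084 at 12 weeks. The difference in steps between this list and the members was not tested. Without the library labelled P1 female 0 of the 12 were called in the first step and 12 in the second.

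**Figure D4:**
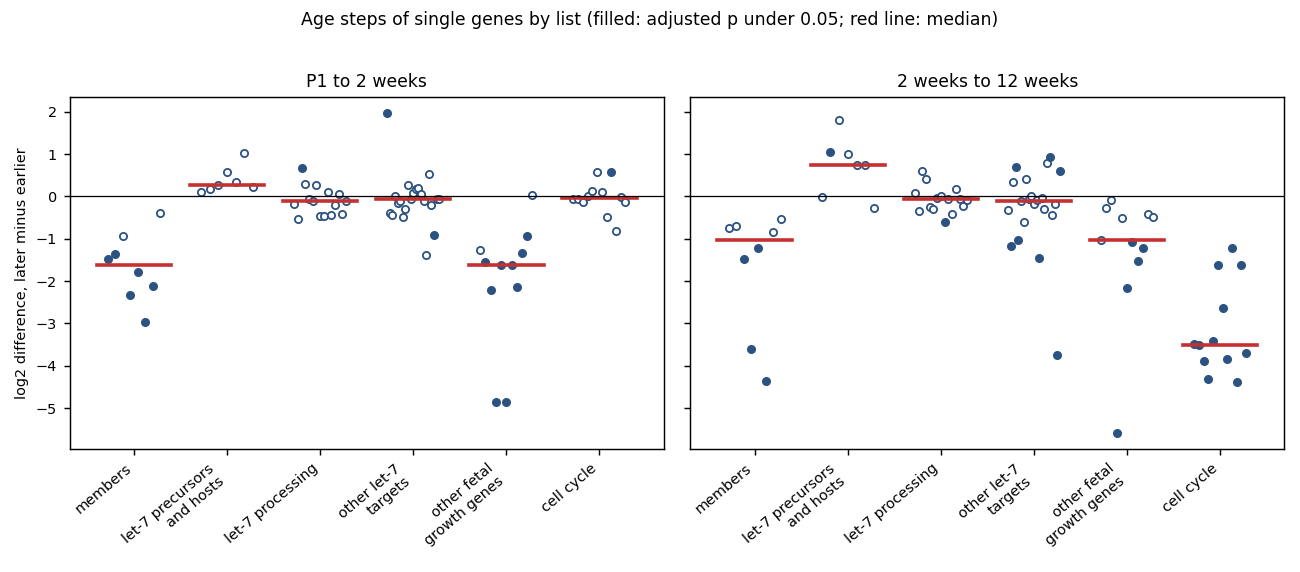
Log2 difference (later minus earlier, limma over 6 postnatal libraries) of each tested gene by list, P1 to 2 weeks on the left and 2 to 12 weeks on the right; red lines are list medians. Members and other fetal growth genes have medians of -1.63 and -1.61 in the first step, where the cell cycle median is -0.04; in the second step the cell cycle median is -3.50.

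Transcripts of several other tissues, like those of the members, were more abundant in the younger pools. Within P1 and within 2 weeks their sums differed between the 2 libraries more than the members' sums did. The members' sums hide shifts of single members. At P1 Igf2bp1 was 1.81 times as high in the male library, and Igf2bp2 0.843 times as high. All 8 hepatocyte markers (among them Alb and Afp) had reads in every library. Their sum was 300190 normalized counts at E18.5, 380260 and 262723 at P1, 13123 and 34280 at 2 weeks, and 454 and 432 at 12 weeks. All 8 skeletal muscle markers had reads except Actc1 at 12 weeks in the female library, and their sum went from 109854 at E18.5 and 192548 and 317673 at P1 to 618 and 28190 at 2 weeks and 236 and 224 at 12 weeks. In both lists 8 of 8 fell from P1 to 2 weeks, and 7 of 8 hepatocyte and 5 of 8 muscle markers fell from 2 to 12 weeks. Without the library labelled P1 female, 2 hepatocyte and 0 muscle markers were called in the first step, 7 and 0 in the second, and 8 and 8 from P1 to 12 weeks.

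Of the further lists, all but the adipocyte and macrophage ones had higher sums in both P1 libraries than at 12 weeks. Not all of these were lower at 12 weeks than at 2 weeks. The 8 kidney markers summed to 1296 at E18.5, 9409 and 2544 at P1, 69.4 and 67.0 at 2 weeks, and 35.0 and 47.5 at 12 weeks, with Umod and Nphs1 at 0 in the 4 later libraries. The 8 nephron progenitor markers summed to 1217, then 1506 and 1636 at P1, 655 and 700 at 2 weeks, and 803 and 485 at 12 weeks, with Six2 at 0 in 3 of the 4 later libraries. The 8 pancreas markers reached 6505 in the P1 male library, against 104 in the one labelled P1 female and 1.78 to 29.4 in the others, with 1 and 2 of them at 0 at P1 and 1 to 7 elsewhere. The 7 erythroid markers in the table summed to 39948 at E18.5, 20963 and 23115 at P1, 2246 and 9132 at 2 weeks, and 2655 and 1290 at 12 weeks, with none at 0. The 8 mesenchyme markers went from 196338 and 219671 at P1 to 53348 and 58811 at 2 weeks and 21821 and 19147 at 12 weeks, and the 8 neuroblast markers from 5884 and 7168 to 4082 and 3390 and then 1448 and 1061, again with none at 0. The 8 adipocyte markers went the other way, from 2893 and 3065 at P1 to 42551 and 47127 at 2 weeks and 35988 and 28659 at 12 weeks, with Lep at 0 at E18.5 and in the P1 male library and Cfd at E18.5. The 8 macrophage markers, none at 0, summed to 8875 and 9925 at P1, 3823 and 5039 at 2 weeks, and 10588 and 9766 at 12 weeks, with 6 of 8 called higher from 2 to 12 weeks (2 without the library labelled P1 female). The part of all these lists in the fall of the members was not tested.

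The 2-week male and female libraries, at 618 and 28190 for muscle and 13123 and 34280 for hepatocyte markers, held 1351 and 1352 normalized counts in the 9 members together. At that age Igf2bp3, the tested member furthest apart, was 1.25 times as high in the female library (0.996 to 1.58). The E18.5 and P1 male libraries, at 29.4 and 6505 for pancreas markers and 1296 and 9409 for kidney markers, held 4553 and 4712. Sums can hide opposite shifts of single members, and a part of tissue make-up in the members' levels was not tested.

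**Figure D5:**
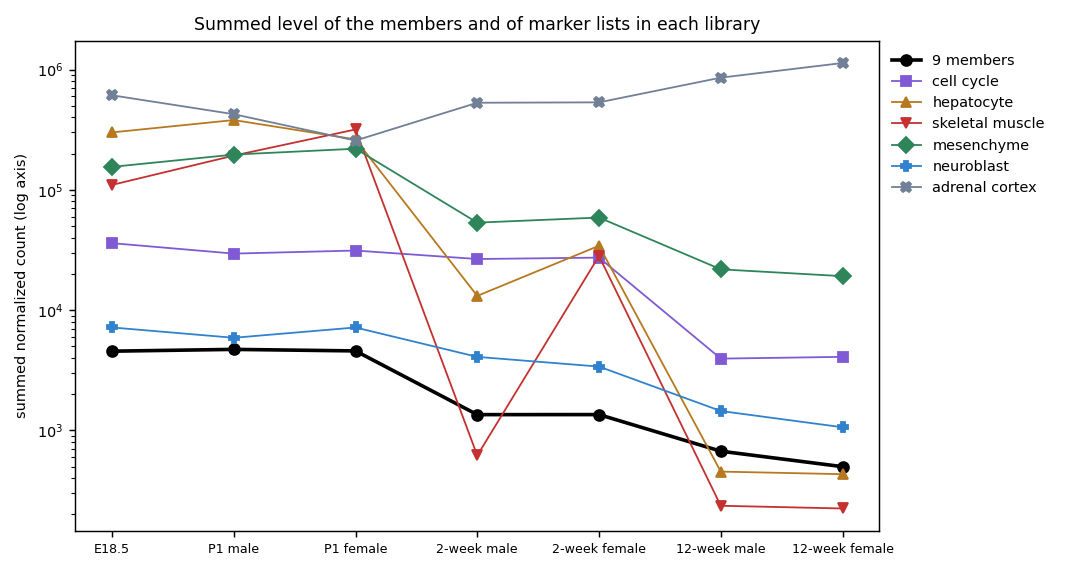
Summed normalized count (log axis) of the 9 members and of marker lists in each of the 7 libraries. The members' sum goes from 4553 to 4712 normalized counts at E18.5 and P1 to 1351 and 1352 at 2 weeks, where the muscle sums of the male and female library are 618 and 28190.

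The genes most like each tested member were named by the Pearson correlation of log2 values over the 7 libraries, as a description of libraries that share their depth and tissue make-up. Candidates were the 13546 genes whose highest value reached 100 normalized counts. Lin28b was closest to Lpcat1 (r = 0.9957), and had Afp, the fetal liver protein, among its 3 closest (0.9914). Hmga2 was closest to Tnfrsf21 (0.9971) and Alb, serum albumin (0.9961), and Igf2bp3 had Serpind1 (0.9964) and Arg1 (0.9964), both genes of hepatocytes. Igf2bp2 was closest to Plekhg2 (0.9977), followed by the matrix genes Hmcn1 (0.9966) and Fbln2 (0.9964). Hmcn1 was also among the 3 closest to Hmga1 (0.9966), which Srgap1 led (0.9992). Igf2bp1 was closest to Tjap1 (0.9978), Arid3a to Hist3h2ba (0.9962) and Mycn to Mlf1 (0.9906). Such values are common over 7 libraries: 9 genes passed 0.98 for Mycn and 159 for Igf2bp2.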

How the data were processed

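Libraries were made from total RNA of 7 pools of adrenal glands with Illumina protocols, per the labels' protocols. The submitters' processing notes name CASAVA 1.8.2, HISAT2 2.1.0, HTSeq 0.9.1, DESeq2 2.11.40.6 and the mm10 genome. The annotation, the use of strand in counting and the treatment of reads that match several places are not given in the sources used here. The deposited values are a signal made by the authors: gene counts divided by a size factor per library. Whole reads were recovered from them (100% of values within 0.001 reads, largest deviation 0.000260), giving 15184210 to 23551289 reads per library, which sets the counting error. No column of per-sample values was left unused.

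Genes averaging 10 or more normalized counts over the 7 libraries were tested with limma 3.58.1 (R 4.3.3, eBayes with trend) on log2(normalized count + 1), which understates the change of low genes, over the 6 postnatal libraries with age and sex as terms. P-values were adjusted by Benjamini-Hochberg over 16720 genes, and all tests were two-sided. Nothing in the labels says that pools of 1 age are replicates, so the p-values measure the spread between the 2 sexes' libraries after a common sex difference is removed. The eBayes step draws each gene's spread towards that of genes of like level, so the p-values also rest on other genes. Ratios of 2 libraries have exact conditional binomial 95% intervals, and shares exact Clopper-Pearson intervals. All intervals and the limit of 3 reads cover counting error only, since the reads carry no molecular identifiers. edgeR 4.0.16 (quasi-likelihood) and DESeq2 1.42.0 on the recovered reads were alternatives, as were other pseudocounts, filters and scalings and leaving out each library. edgeR called 2859, 2441 and 6780 genes for P1 to 2 weeks, 2 to 12 weeks and P1 to 12 weeks, DESeq2 3040, 2942 and 6490, and limma 2737, 2557 and 6881.

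The text names all 9 members, the 2 highest and 2 lowest of each pathway list by difference from P1 to 12 weeks (1 of them is not reported here), and genes from among the 3 most correlated with each tested member. Igf2, H19, Dlk1, Trim71, Dis3l2, Zcchc11 and Zcchc6 were set to be named whatever they did. Mir99ahg, Mirlet7c-1, Plagl2 and Trim67 were added after their values were seen. The members and lists were chosen with earlier results of these data known. Sequences came from RefSeq (GRCm38.p6) and GENCODE vM21 (GRCm38), whose coordinates are those of mm10, and the seed was searched in the 3′ UTR of 1 transcript per gene.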

Additional observations from a re-analysis of the deposited data

Results flagged for a closer look

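Igf2bp2 stood out because its difference between the sexes pointed in opposite directions at different ages. Male minus female, the log2 difference came to -0.25 among P1 glands but to 0.24 at 2 weeks and 0.38 at 12 weeks. There is 1 library per sex and age, the P1 value rests on the library labelled female that held Y-linked transcripts, and the difference between ages was not tested.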

How the results depend on the processing

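For the tested members 407 of 476 alternative values kept their direction and their side of the threshold, 51 lost the call, 7 gained it and 11 changed sign. For the comparisons of 2 libraries, all 155 alternative values were classed as the same as the main value. That class lets a value shift with the pseudocount or the scaling, so it does not mean that sizes or signs were identical. The 11 sign changes were between the sexes, where no member was called. Leaving out 1 library gave differences (male minus female) of -0.22 to 0.37 for Igf2bp1 and -0.12 to 0.18 for Hmga2, negative without either P1 library, and of -0.00342 to 0.31 for Igf2bp2, -0.22 to 0.97 for Igf2bp3 and -0.08 to 0.41 for Arid3a, negative without either 12-week library. With edgeR Igf2bp3 differed by -0.04. Leaving out 1 library gave 2 to 4461 called genes for P1 to 2 weeks, 421 to 3035 for 2 to 12 weeks, 3207 to 6271 for P1 to 12 weeks and 0 to 51 between the sexes. The lone library of an age is then assumed to vary like the others, and 1 residual degree of freedom is left. With no filter limma called 0 genes for P1 to 2 weeks (6431 at an unadjusted p below 0.05), 0 for 2 to 12 weeks (6036) and 0 between the sexes (783). Without the trend it called 1672, 1661 and 0 (638 at an unadjusted p below 0.05 between the sexes), and DESeq2 called 9 between the sexes. The cause of these shifts was not tested. Equal library totals shifted the all-gene median to -0.20 for 2 to 12 weeks and -0.15 for P1 to 12 weeks, from -0.03 in both, and the split for 2 to 12 weeks was 645 higher and 2514 lower, against 903 and 1654. All members kept a negative difference in the 3 age comparisons under every scaling tried. Past 4-fold in place of 2-fold, 280 and 400 genes differed between E18.5 and P1 male and P1 female, and 209, 185 and 276 between the sexes at P1, 2 and 12 weeks. With a mean of at least 50 the 2-fold counts were 624, 1204, 473, 325 and 814, and with a pseudocount of 5 the count at 2 weeks was 455. No paired analysis was possible because each age and sex has 1 library and the labels carry no replicate numbers. Depth limits Lin28a, Lin28b, Igf2bp1 and Igf2bp3 at 12 weeks, where each had 9 reads or fewer per library.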
